A study of Mus musculus with 7 samples.

Results

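The Gli genes Gli1, Gli2 and Gli3 encode the zinc finger transcription factors at the end of the Hedgehog pathway, and they were taken here by gene symbol as 3 of the 24047 genes counted in SMB21 cells. All 3 symbols were found, and 2 of them, Gli1 and Gli2, had enough reads to be tested. Gli1 and Gli2 were both abundant and were both lower in cells that carried a guide against a cilium gene than in control cells. Gli3 had 2 reads in all 7 libraries together.

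SMB21 is a mouse medulloblastoma line of the strain background Ptch1tm1Mps/J, labelled a Ptch mutant with the age given as Adult and grown as neurospheres. The cells of all groups carry that background and received a lentiCRISPR virus; RNA was taken 2 weeks after infection. The guide targeted GFP, a sequence foreign to mouse, in 2 control libraries (a further control replicate that the series text counts was not analysed here), Ofd1, a centriole and basal body gene, in 3 libraries, and Kif3a, a kinesin-2 motor gene, in 2 libraries. The groups are called GFP control, Ofd1 CRISPR and Kif3a CRISPR, and single libraries by target and replicate number, such as GFP 1 or Ofd1 2. This is 1 cell line, the labels name no clone or pool, and editing was not checked here. The replicates are called biological in the labels with no further detail, so the p-values judge differences against the spread between these libraries only. In the edgeR fits that spread was estimated jointly over the groups.

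Gli proteins act downstream of the receptor Ptch1, of the membrane protein Smo that Ptch1 restrains, and of Sufu, which binds Gli proteins and holds them inactive. Gli2 is the main activator at the start of a response and Gli3 is mostly cut into a repressor. The switch between activator and repressor forms takes place at the primary cilium, an organelle whose assembly needs Ofd1 and Kif3a. Gli1 is an activator that is itself a target of the pathway, and its transcript is the usual readout of Hedgehog activity in medulloblastoma of the Sonic hedgehog group and in the granule neuron progenitors from which such tumours arise.

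Because the 3 genes share their zinc finger region, the coding sequences were compared for reads that could be credited to the wrong member, a check added after the low Gli3 counts had been seen. In the GENCODE M21 transcripts (GRCm38) the coding regions span 3333 bases in Gli1, 4632 in Gli2 and 4749 in Gli3, which is 1111, 1544 and 1583 residues. No coding window of 75 bases, the read length, was identical between members. The closest windows of Gli1 and Gli2 differed at 4 bases, those of Gli1 and Gli3 at 9 and those of Gli2 and Gli3 at 10. The 2 pairs below are shown because they are the stretches where a read of Gli2 most resembles each of the other members. Capitals mark the bases that differ within a pair, and positions are counted from the first base of the start codon. The first pair lies at bases 849 to 923 of Gli1 and 1386 to 1460 of Gli2, and the second at bases 1285 to 1359 of Gli2 and 1474 to 1548 of Gli3.
Gli1, against Gli2: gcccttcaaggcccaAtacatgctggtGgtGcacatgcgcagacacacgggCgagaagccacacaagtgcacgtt
Gli2, against Gli1: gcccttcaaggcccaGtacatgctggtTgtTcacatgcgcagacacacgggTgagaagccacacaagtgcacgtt
Gli2, against Gli3: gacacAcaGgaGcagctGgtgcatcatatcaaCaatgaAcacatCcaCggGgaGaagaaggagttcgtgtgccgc
Gli3, against Gli2: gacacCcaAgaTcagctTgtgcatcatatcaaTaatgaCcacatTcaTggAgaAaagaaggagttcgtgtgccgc

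Across whole transcripts, 0 of 7263 Gli2 windows of 75 bases occurred in another gene of that annotation on either strand. In Gli1 193 of 5173 windows (3.73%) and in Gli3 101 of 9589 (1.05%) did, in Gm47200 and Gm6556, which lie on the opposite strand and were not analysed here. Arhgap9, whose exons also overlap those of Gli1 on the opposite strand, had between 0 and 17 reads per library against 3398 to 9515 for Gli1. The strand setting of the counting is not given in the sources used here.

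The RefSeq promoter table (GRCm38.p6) held entries for Gli2 and Gli3. The 250 bases before each start were searched on both strands for the Gli consensus GACCACCCA and for 4 shorter, overlapping forms of it, namely GACCACCC, then ACCACCC, then CCACCCA, and last the variant GCCACCC. Among 32851 promoters listed there, 0.225% held the consensus, and 0.703%, 3.92%, 8.11% and 5.44% held the shorter forms in that order. Neither Gli2, Gli3, Ptch1 nor Hhip held the consensus. Gli2 held 1 of the 5 strings, ACCACCC, once, on the opposite strand as GGGTGGT, beginning 205 bases before the start. Hhip held GCCACCC once, and Gli3 and Ptch1 held none of these strings. The shorter forms were tried after the consensus had given no match, and the Gli2 match was picked out after all 5 had been seen. The Gli2 window is shown because Gli2 fell in both CRISPR groups; it lies at chr1:119053620-119053869 (GRCm38.p6, minus strand, written 5′ to 3′ along the gene), with the ACCACCC match, read from the other strand, in capitals. A match of letters is a description and not a site, and a missing match says nothing about binding.
Gli2 promoter: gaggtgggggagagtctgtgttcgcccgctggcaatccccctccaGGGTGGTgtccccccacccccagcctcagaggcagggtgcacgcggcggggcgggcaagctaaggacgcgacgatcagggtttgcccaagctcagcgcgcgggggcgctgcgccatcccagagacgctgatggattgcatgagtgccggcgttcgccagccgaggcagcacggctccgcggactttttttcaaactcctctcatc

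The 7 libraries held 17961767 to 23022701 reads in genes. Levels are given as CPM, the usual depth-scaled read count, after scaling with TMM factors, which correct for composition. Kif3a stood at 73.9 and 60.5 CPM in Kif3a CRISPR against 104 CPM in both GFP control libraries (edgeR adjusted p = 0.000854), whereas Ofd1 stood at 20.03 to 22.0 CPM in Ofd1 CRISPR against 22.6 and 23.2 CPM, a difference that did not pass the test (edgeR adjusted p = 0.398), so its transcript level does not check the Ofd1 label. All 13 fixed markers of granule progenitors and Sonic hedgehog medulloblastoma had a mean of at least 5 CPM. They include Gli1 itself and Ptch1, Ccnd1, Mycn and Atoh1, which are also results here, so they are not a separate check of those genes. The markers split in direction. Atoh1, Pax6, Barhl1, Meis1 and Neurod1 were higher in every CRISPR library than in both controls, as were 20.6% of tested genes. Gli1, Ptch1, Ccnd1, Mycn and Sfrp1 were lower in every one, as were 20.7% of tested genes, and Zic1, Zic2 and Boc overlapped. Of the 10 microglia and macrophage markers none had a mean of 5 CPM and Cx3cr1 was at 0, but Lyz2 stood at 5.95 CPM in GFP 1 and at 0 to 0.108 CPM elsewhere. Their summed level was 19.2 CPM in GFP 1 and 2.96 to 4.62 CPM in the other 6 libraries. Endothelial markers summed to 1.51 to 3.01 CPM, with Cldn5 at 0, and fibroblast and pericyte markers to 0.734 to 1.30 CPM. Oligodendrocyte markers summed to 262 and 275 CPM in GFP control and to 86.6 to 174 CPM in the CRISPR libraries, nearly all of it Pdgfra, with Sox10 and Mog at 0. The summed markers of 3 further types were higher in every CRISPR library than in the controls, although single markers differed in direction. Ependymal markers summed to 17.2 and 17.7 CPM in GFP control and 26.8 to 41.2 CPM in the CRISPR libraries (Tekt1 at 0). Foxj1 was higher, at 8.11 and 7.42 against 16.3 to 30.6 CPM. Ccdc39 overlapped, at 8.94 and 10.3 against 9.65 to 12.1 CPM, and Dnah5, Dnah9 and Rsph1 stayed under 1 CPM. Neuron markers summed to 614 and 616 against 668 to 764 CPM (Stmn2 and Gabra6 at 0), with Dcx at 167 and 169 against 284 to 427 CPM. Rbfox3 was lower, at 277 and 289 against 185 to 228 CPM. Map2 was also lower, at 87.6 and 78.3 against 64.1 to 74.3 CPM, and Tubb3, Snap25 and Syt1 overlapped. Astrocyte and neural stem cell markers summed to 1038 and 1053 against 1083 to 1219 CPM, with Aqp4 at 0. Vim was higher, at 409 and 374 against 477 to 551 CPM. Sox2 was lower, at 56.2 and 57.2 against 30.9 to 36.9 CPM. Gfap, S100b, Slc1a3, Nes and the nearly absent Aldh1l1 overlapped. The part of these markers in the results on Gli genes and their pathway was not tested. Fits without GFP 1 leave 1 control library, and they cannot test markers whose levels both controls share. In bulk RNA, fewer cells that express a gene and less transcript per cell cannot be told apart.

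Gli1, the pathway's readout and a strong activator, stood at 427 and 477 CPM in the GFP control libraries. In Ofd1 CRISPR it was at 167, 326 and 265 CPM in replicates 1, 2 and 3. In Kif3a CRISPR it was at 201 and 309 CPM in replicates 1 and 2. Every CRISPR library lay below both controls, and the CRISPR libraries spread widely, with the lowest and the highest value both in the Ofd1 group. A position below both controls in all 5 CRISPR libraries was shared by 20.7% of tested genes.

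Gli2, the activator that acts first in a response, stood at 270.0 and 285 CPM in GFP control. In Ofd1 CRISPR it was at 211, 237 and 201 CPM, and in Kif3a CRISPR at 186 and 214 CPM. Here too the CRISPR libraries all lay below the controls, over a much narrower range than for Gli1. The SD over the Ofd1 CRISPR libraries was 18.6 CPM for Gli2 (mean 216, n = 3) and 79.9 CPM for Gli1 (mean 253, n = 3).

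Gli3, the gene of the main Gli repressor, had 1 read each in Ofd1 CRISPR replicates 1 and 3 and 0 reads in the other 5 libraries. It did not pass the filter on low counts and was not tested. Of 74927 reads on the 3 Gli genes, Gli3 held 2, or 0.00267% (exact binomial 95% interval 0.000323% to 0.00964%, counting error only). An observed 0 allows up to 3 expected reads, or 0.130 to 0.167 CPM depending on the library. That limit holds for the 5 libraries with 0 reads, and the 2 libraries with 1 read also stood below it, at no more than 0.0514 CPM. Gli3 was thus close to absent, and no change between groups can be read from so few reads. Of all genes counted, 34.1% had no more reads than Gli3.

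**Figure D1:**
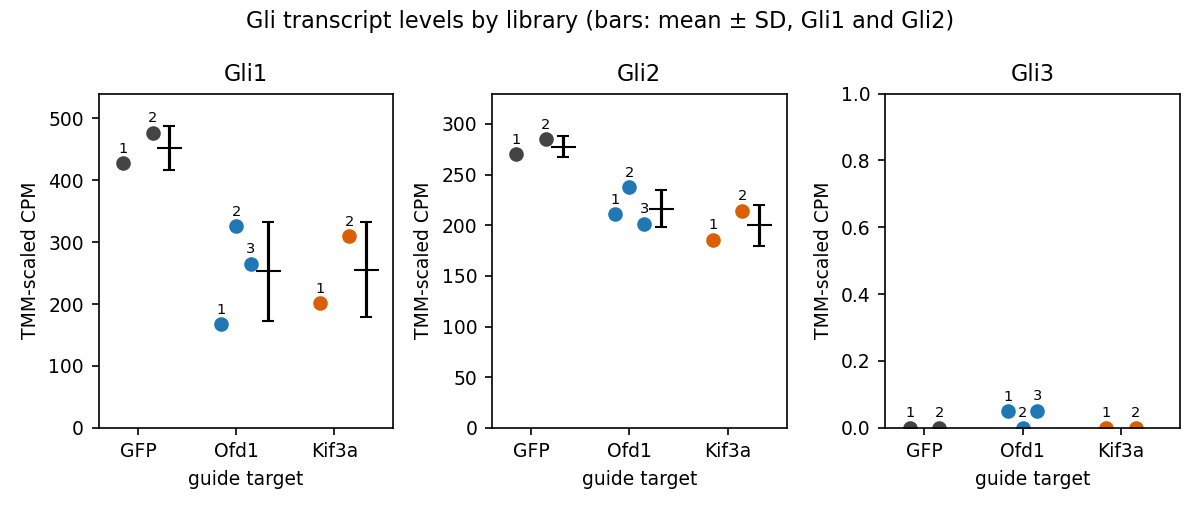
Levels of Gli1, Gli2 and Gli3 in TMM-scaled CPM on the vertical axes, by guide target, 1 point per library with its replicate number; the black marks give mean ± SD for Gli1 and Gli2. The 5 CRISPR libraries sit at 167 to 326 CPM for Gli1 and 186 to 237 CPM for Gli2, below the controls at 427 and 477 and at 270.0 and 285, while Gli3 reaches at most 0.0514 CPM on a finer axis.

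To set the members beside each other, CPM were divided by the length of each gene's merged exons in GENCODE M21, which may differ from the gene models used for counting. On this scale GFP control cells held 90.5 ± 7.05 CPM per kilobase of Gli1 and 40.4 ± 1.505 of Gli2 (SD, n = 2). Ofd1 CRISPR cells held 50.6 ± 16.0 of Gli1 and 31.5 ± 2.71 of Gli2 (SD, n = 3), and Kif3a CRISPR cells 51.1 ± 15.3 and 29.1 ± 2.96 (SD, n = 2). The order was Gli1, Gli2, Gli3 in all 7 libraries. Gli1 exceeded Gli2 by 2.17 and 2.30 times in the controls and by 1.09 to 1.99 times in the CRISPR libraries. The step was smallest in Ofd1 1, where the levels were 33.5 and 30.7 CPM per kilobase. For Gli3 the limit that a count of 0 allows was at most 0.0174 CPM per kilobase.

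A first question is what the guide against the basal body gene Ofd1 did to Gli transcripts. Gli1 was 1.79-fold lower and Gli2 1.28-fold lower. The log2 fold changes were -0.84 (SE 0.220) for Gli1 and -0.36 (SE 0.0853) for Gli2, with adjusted p = 0.0257 and 0.0167 by edgeR's quasi-likelihood test over all tested genes. In this comparison 8.09% of tested genes were called lower. Each of the 2 calls was lost when a single control library was left out: without GFP 1 the adjusted p was 0.0720 for Gli1 and 0.0726 for Gli2, and without GFP 2 it was 0.128 and 0.142. DESeq2 gave an adjusted p of 0.0958 for Gli1 and 0.00146 for Gli2.

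The same was asked of the guide against the motor subunit Kif3a, with the same control libraries. Gli1 was 1.77-fold lower (log2 fold change -0.82, SE 0.246, edgeR adjusted p = 0.0349). Gli2 was 1.39-fold lower (-0.47, SE 0.0943, adjusted p = 0.00495). Here 10.9% of tested genes were called lower. Without Kif3a 1, the library with the lower value of both genes, the log2 fold changes were -0.54 and -0.37 and both calls were lost (adjusted p = 0.321 and 0.0942). The Gli1 call was also lost without GFP 1 (0.0783) or GFP 2 (0.127) and with DESeq2 (0.135), and the Gli2 call was kept in these fits (0.0225, 0.0421 and 5.12e-05).

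When the mean of the Ofd1 and Kif3a groups was set against GFP control, both genes passed by edgeR. Gli1 was 1.78-fold lower (log2 fold change -0.83, SE 0.199, adjusted p = 0.0115) and lower in 5 of 5 CRISPR libraries. Gli2 was 1.33-fold lower (-0.41, SE 0.0778, adjusted p = 0.0029), also in 5 of 5. In this comparison 12.3% of tested genes were called lower and 10.6% higher. With each library left out in turn, the Gli2 call was kept in 7 of 7 fits (adjusted p from 0.00223 to 0.0460) with log2 fold changes of -0.47 to -0.36. The Gli1 call was kept in 5 of 7; it was lost without GFP 2 (0.0802) and without Kif3a 1 (0.0706), and with DESeq2 its adjusted p was 0.0545. Without GFP 1, the library with the highest sum of macrophage markers, both log2 fold changes stayed negative. That fit leaves 1 control library, and the part of the macrophage markers was not tested.

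**Figure D2:**
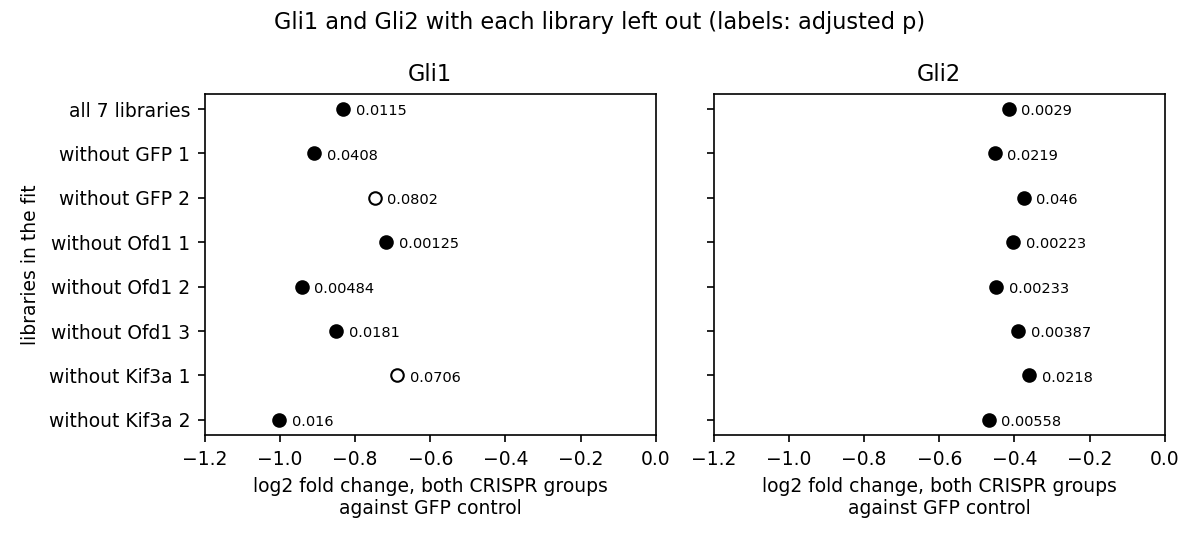
Log2 fold change of Gli1 (left) and Gli2 (right) for both CRISPR groups against GFP control on the horizontal axes, with all 7 libraries and with each library left out in turn on the vertical axis; filled points have an edgeR adjusted p under 0.05, open points do not, and the labels give that p. Gli2 stays between -0.47 and -0.36 and filled throughout, while Gli1 runs from -1.002 to -0.69 with 2 open points.

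Set directly against each other, Ofd1 and Kif3a CRISPR libraries overlapped in both genes. The log2 difference of Ofd1 over Kif3a CRISPR was -0.01 for Gli1 (95% interval -0.50 to 0.47, edgeR adjusted p = 0.992) and 0.12 for Gli2 (-0.07 to 0.30, adjusted p = 0.702). These intervals leave room for a difference between the guides in Gli1 as large as 0.50 on the log2 scale. In this comparison 0.179% of tested genes were called.

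How the 2 activators moved relative to each other can be read inside a library, where no scaling of totals enters. Gli1 had 1.58 and 1.68 reads per Gli2 read in the controls. The ratio was 0.795, 1.37 and 1.32 in Ofd1 CRISPR and 1.09 and 1.44 in Kif3a CRISPR. Every CRISPR library lay below both controls, and in Ofd1 1 alone Gli1 had fewer reads than Gli2. On the log2 scale the mean ratio was 0.23 ± 0.35 in the CRISPR libraries (SD, n = 5) and 0.70 ± 0.06 in the controls (SD, n = 2), a difference of -0.47. An exact two-sided permutation test over libraries gave p = 0.143, where the smallest possible was 0.0476, so unequal falls were not shown by this test. The differences were -0.53 for Ofd1 CRISPR (exact permutation p = 0.300, smallest possible 0.100) and -0.38 for Kif3a CRISPR (0.333, which is the smallest possible). The Ofd1 CRISPR difference was -0.28 without Ofd1 1, and the Kif3a CRISPR difference was -0.17 without Kif3a 1 and -0.58 without replicate 2.

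**Figure D3:**
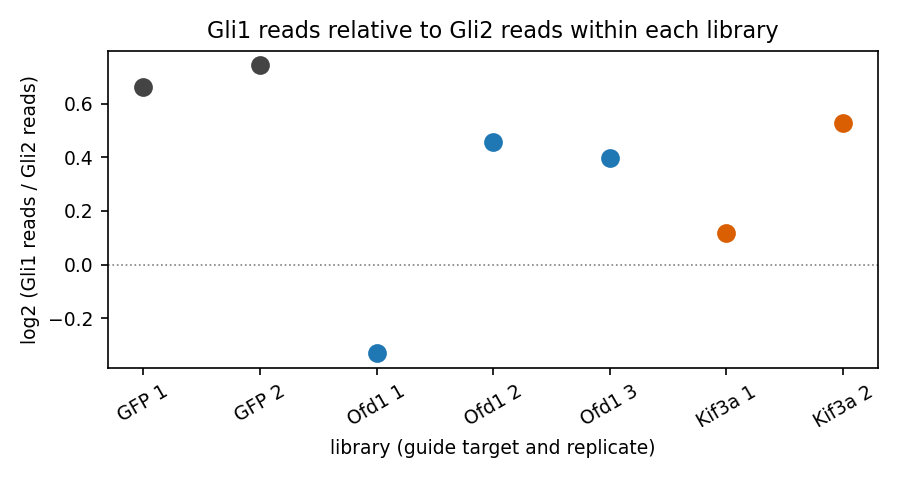
Log2 ratio of Gli1 reads to Gli2 reads on the vertical axis for each library on the horizontal axis, coloured by guide target; the dotted line marks equal numbers of reads. The controls lie at 0.66 and 0.74 and the 5 CRISPR libraries between -0.33 and 0.53.

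Hedgehog target genes were described beside the members by a list of 16, which includes the co-receptor genes Gas1, Cdon and Boc. The list does not separate genes that the pathway induces from genes that it represses. A fall of a listed gene is therefore not by itself a fall in pathway output. In both CRISPR groups against GFP control, 6 of 13 tested targets fell, 1 rose and 6 did not pass. Among all tested genes 12.3% were called lower and 10.6% higher. The median log2 fold change of the targets was -0.15 against 0.01 over all tested genes. Leaving out any 1 library gave 5 to 6 that fell and 1 that rose. Ptch1, the receptor that restrains Smo and is itself induced by Gli proteins, was at 140 and 150 CPM in GFP control, 59.0, 85.1 and 86.9 CPM in Ofd1 CRISPR and 51.5 and 70.7 CPM in Kif3a CRISPR. This was a 2.12-fold fall, or -1.08 on a log2 scale with an SE of 0.137 (edgeR adjusted p = 0.000265). Hhip, a membrane protein that binds and blocks Hedgehog ligands, was at 124 and 145 CPM, then 27.5, 56.9 and 61.7 CPM, then 42.8 and 56.0 CPM in the same order. It fell by 1.46 (SE 0.212, adjusted p = 0.000595), and whether it fell more than the Gli genes was not tested. The other targets that fell were Gas1, Ccnd1 (-0.60, adjusted p = 0.00177), Igf2 (-0.45, 0.0314) and Mycn (-0.43, 0.00176).

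The target that rose was Atoh1, the proneural factor of granule neuron progenitors, at 364 and 388 CPM in the controls and 496 to 620 CPM in the CRISPR libraries (0.55, SE 0.0862, adjusted p = 0.000955). Its libraries did not overlap between controls and CRISPR groups, in the direction opposite to Gli1, as was so for 20.6% of tested genes.

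The 5 CRISPR libraries were not equally low. As a percentage of the control mean, Gli1 stood at 37.1%, 72.1% and 58.7% in Ofd1 CRISPR replicates 1, 2 and 3 and at 44.6% and 68.5% in Kif3a CRISPR replicates 1 and 2. Gli2 stood at 76.0%, 85.6%, 72.7%, 66.9% and 77.3%, and its lowest library was Kif3a 1. Ptch1 was also lowest in Kif3a 1, at 35.6%, and Hhip in Ofd1 1, at 20.4%.

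**Figure D4:**
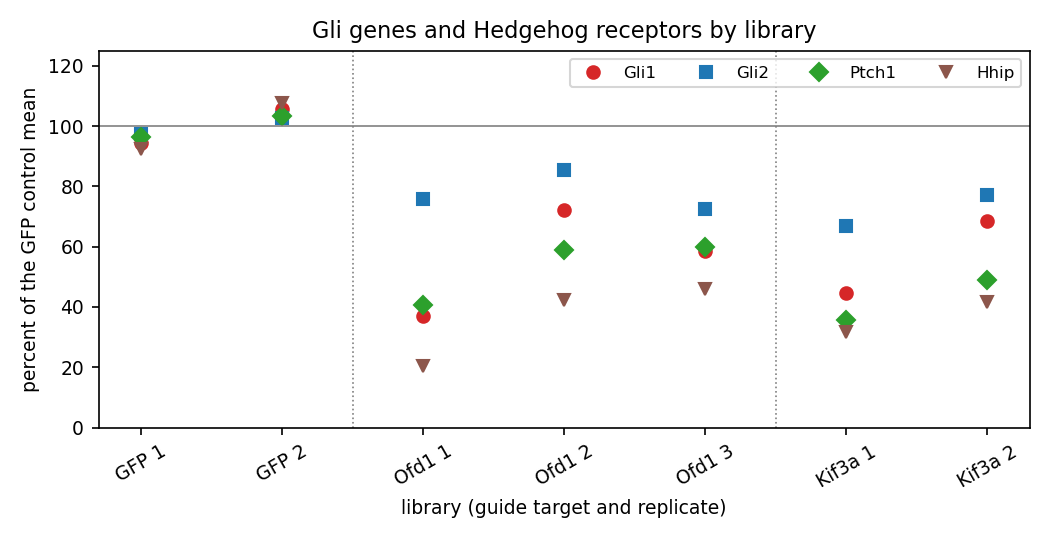
Level of Gli1, Gli2, Ptch1 and Hhip as a percentage of the GFP control mean on the vertical axis, for each library on the horizontal axis, 1 symbol per gene. Gli2 is the highest of the 4 genes in every CRISPR library, at 66.9% to 85.6%, and Hhip the lowest, at 20.4% to 45.8%.

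The genes most like each member over the 7 libraries were ranked by Pearson correlation of log2 CPM, as a description in which groups, depth and composition are common to the 7 points. For Gli1 they were Lrp8, a reelin receptor (r = 0.994), the sorting receptor gene Sorcs2 (0.992), 9530053A07Rik (0.991), 4932418E24Rik (0.990) and Esyt1 (0.989), among 1249 genes. Sorcs2 went from 105 and 108 CPM in GFP control to 33.7, 70.6 and 61.3 CPM in Ofd1 CRISPR and to 47.0 and 69.9 CPM in Kif3a CRISPR. For Gli2, among 1250 genes, they were Fgfr1, a fibroblast growth factor receptor (0.986), Cebpa (0.985), Begain (0.984), Sall3 (0.983) and Tpcn1 (0.983). Fgfr1 went from 279 and 289 CPM to 188, 222 and 191 CPM and to 175 and 199 CPM in the same groups. The lists of the 2 members had no gene in common, and Gli1 and Gli2 had r = 0.863 with each other. Ptch1 had r = 0.917 with Gli1 and 0.921 with Gli2, which placed it at rank 150 among the genes compared for Gli1 and rank 99 for Gli2.

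Ligands and receptors above the Gli proteins came next. The ligand gene Shh had 2 reads in all, in 1 library, Dhh had 2 in all, and Ihh had 4 to 15 reads per library, at 0.197 to 0.809 CPM. Of 3 tested genes of ligands and their release 0 changed in the comparison of both CRISPR groups by edgeR or DESeq2, and 1 had an unadjusted edgeR p under 0.05. Of 8 receptor and co-receptor genes 3 fell and 5 did not pass, and 3 fell in each fit with 1 library left out. The 3 were Ptch1, Hhip and Gas1, a co-receptor (-0.54, SE 0.100, edgeR adjusted p = 0.00279). All 3 were already counted among the targets, and 12.3% of all tested genes were called lower. Smo, the signal transducer, was at 379 and 377 CPM in the controls and 386 to 433 CPM in the CRISPR libraries, and although the groups did not overlap, the log2 fold change of 0.12 did not pass (adjusted p = 0.205). The co-receptor Boc was at 378 and 394 CPM in the controls and 363 to 403 CPM in the CRISPR libraries, and the groups overlapped (log2 fold change -0.00491, adjusted p = 0.965).

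**Figure D5:**
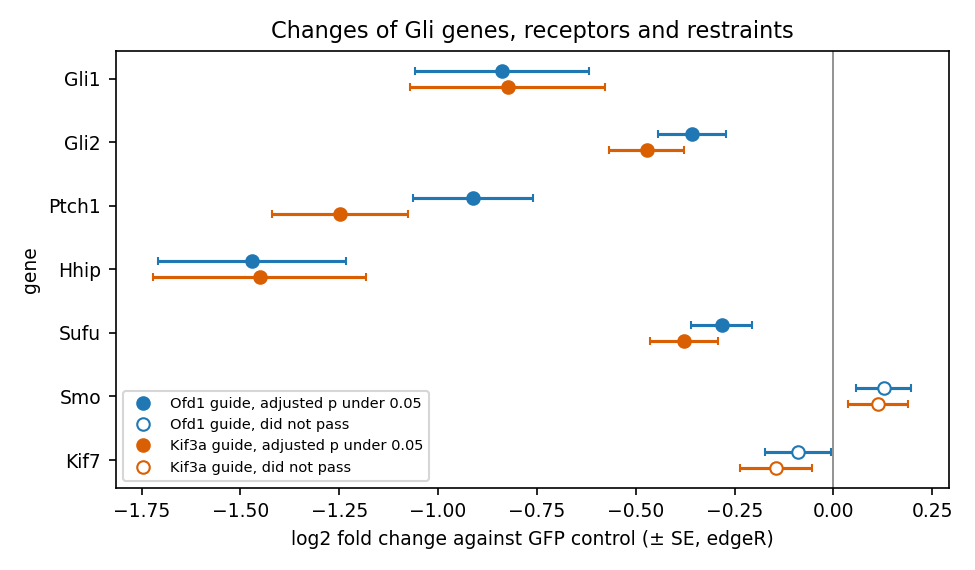
Log2 fold change against GFP control with its SE (bars) on the horizontal axis for the Gli genes, receptors and restraints named on the vertical axis, in Ofd1 CRISPR and Kif3a CRISPR; filled points have an edgeR adjusted p under 0.05. Gli1, Gli2, Ptch1, Hhip and Sufu are filled for both guides and lie left of 0, and Smo and Kif7 are open for both.

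Of 16 tested partners and trafficking factors of Gli proteins, 3 rose, 2 fell and 11 did not pass, near the shares of all tested genes (10.6% higher and 12.3% lower). Sufu, which tethers Gli proteins, was at 139 and 140 CPM in the controls and 105 to 126 CPM in the CRISPR libraries. It fell by 0.33 (SE 0.0711, edgeR adjusted p = 0.00649) and did not pass once GFP 1 (0.0633) or GFP 2 (0.0702) was dropped. Stk36, the mouse counterpart of the fly kinase Fused, rose by 0.66 (SE 0.106, adjusted p = 0.00113), from 21.6 and 21.2 CPM to 26.9 to 37.0 CPM. Evc, a ciliary protein that binds Smo, rose by 0.35 (adjusted p = 0.00752, and 0.129 with GFP 1 dropped). Kif7, the ciliary kinesin that organises Gli and Sufu at the cilium tip, was at 31.5 and 32.6 CPM in the controls and 27.9 to 31.6 CPM in the CRISPR libraries and did not pass (-0.12, adjusted p = 0.289). The list's 3 rises and 2 falls were 1 and 0 without GFP 1, and its falls were 0 without GFP 2 and 1 without Kif3a 2, whereas 5 rose without Ofd1 3.

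Kinases and ubiquitin ligases act on Gli proteins after translation. Of 22 kinase genes 2 fell, 1 rose and 19 did not pass by edgeR, beside 12.3% lower and 10.6% higher among all tested genes, and the median log2 fold change was -0.08. Those that fell were Aurka (-0.26, adjusted p = 0.0218) and Prkacb, a catalytic subunit of protein kinase A (-0.24, 0.0328), and Cdk7 rose (0.23, 0.0484). Cdk7 was not called with DESeq2 (0.0835), and none of the 3 was called without GFP 1 or without GFP 2. The number that fell was 1 without Ofd1 2, Kif3a 1 or Kif3a 2, and 4 fell and 4 rose without Ofd1 3; 0 rose without Ofd1 1 or either Kif3a CRISPR library. Of 16 ubiquitin ligase genes 1 rose, the ring protein gene Rbx1 (0.22, adjusted p = 0.0183), and 15 did not pass, beside the same shares of all genes; Rbx1 was not called without GFP 1 (0.177) or 2 (0.154), and 2 genes of the list rose without Ofd1 3. Spop, whose product recruits full-length Gli2 and Gli3 to a ubiquitin ligase, had 29 reads over the 7 libraries, 15 of them in GFP 1, and was not tested. Its relative Spopl stood at 15.8 to 23.7 CPM.

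Among 16 chromatin cofactors 3 rose, 1 fell and 12 did not pass, near the shares of 10.6% and 12.3% over all tested genes. Sox9, a stem cell transcription factor, fell by 0.73 (SE 0.0825, edgeR adjusted p = 0.000137), from 224 and 232 CPM to 123 to 156 CPM. Med12, a subunit of the Mediator kinase module, rose by 0.55 (adjusted p = 0.00307, and 0.0588 with GFP 1 dropped). Without GFP 1 no cofactor rose by edgeR, although 3 did by DESeq2 with all libraries, and 1 rose without GFP 2, Ofd1 2 or Kif3a 1 and with RLE size factors, whereas 4 rose without Ofd1 3.

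The zinc finger relatives of the Gli genes that passed were all higher in the CRISPR groups. Of 8 tested Glis and Zic genes 3 rose and 5 did not pass in both CRISPR groups against GFP control, beside 10.6% higher among all tested genes, with a median log2 fold change of 0.29. Leaving out any 1 library gave 2 to 4 that rose. Zic4, a granule lineage factor, was at 56.8 and 56.3 CPM in the controls, 93.7, 84.4 and 77.5 CPM in Ofd1 CRISPR and 98.8 and 89.4 CPM in Kif3a CRISPR (log2 fold change 0.66, SE 0.0825, edgeR adjusted p = 0.000232). Glis1 was at 5.11 and 4.16 CPM in the controls and rose to 8.85 to 15.2 CPM (1.33, SE 0.215, adjusted p = 0.00115). Glis2 rose by 0.39 (adjusted p = 0.0202), but not once GFP 1 (0.0954), GFP 2 (0.161) or Kif3a 1 (0.0745) was dropped.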

How the data were processed

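RNA of 7 SMB21 libraries was sequenced from poly-A selected, stranded libraries as single-end reads of 75 bases in 1 run, per the labels' protocols. The deposited table holds raw counts per gene symbol and library; per the submitters' processing notes the names STAR, DESeq2 and mm9 apply, with no role, while counter, annotation, strand setting and versions were not stated. Of 24047 genes, 12875 passed filterByExpr and were tested with edgeR 4.0.16 (TMM factors, 1 mean per group over all 7 libraries, 4 residual degrees of freedom, quasi-likelihood F test, Benjamini-Hochberg over all tested genes, threshold 0.05), tested on simulated data. SE was derived from the F statistic. DESeq2 1.42.0, other scalings, no filter, a replicate block and leaving out each library were alternatives. Ratios carried a prior count of 0.5; those with Gli3 were not formed, since Gli3 lay under the count limit.

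The members and lists were chosen with earlier results of these data known. Named genes were the Gli genes, Ptch1, Hhip, Sufu, Smo, Kif7, Spop, Ofd1 and Kif3a, the 3 genes of lowest adjusted p among those called in each list, and the 5 genes most like each member (mean of at least 5 CPM, SD of log2 CPM of at least 0.25 and, a condition added later, a read in every library); Ccnd1, Igf2, Mycn, Boc, Pdgfra, Lyz2, Foxj1, Dcx, Shh, Dhh, Ihh, Spopl and Arhgap9 were chosen after their values were seen. A gene of these lists is not reported here; it was left out of the lists, figures and likeness ranking but stayed in the fit.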

Additional observations from a re-analysis of the deposited data

Results flagged for a closer look

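Ofd1 differed between the Ofd1 and Kif3a CRISPR libraries when tested directly. The log2 difference of Ofd1 over Kif3a CRISPR was -0.53 (SE 0.0887, edgeR adjusted p = 0.0399), with 20.03 to 22.0 CPM in Ofd1 CRISPR and 31.7 and 29.0 CPM in Kif3a CRISPR. Against GFP control Ofd1 was higher in Kif3a CRISPR (0.41, edgeR adjusted p = 0.0126), and its difference of -0.12 in Ofd1 CRISPR did not pass (0.398). The direct difference passed with DESeq2 (0.00325), with no filter (0.0121) and with the replicate block (0.0109). It did not pass once GFP 1 (0.0946), GFP 2 (0.0889), Ofd1 2 (0.128), Kif3a 1 (0.924) or Kif3a 2 (0.123) was dropped, nor in a fit on these 2 groups alone (0.0962). Kif3a differed by 0.48 in the same comparison and did not pass by edgeR (adjusted p = 0.0588), but it passed with DESeq2 (0.000348), with no filter (0.0121), with the replicate block (0.0159) and without Ofd1 1 (0.0309).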

How the results depend on the processing

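With 2 control libraries, a fit that leaves one out assumes that the other varies like the remaining groups. Gli1 and Gli2 kept a negative log2 fold change against GFP control under every alternative run. With DESeq2 the Gli1 values were -0.84, -0.83 and -0.83 for Ofd1, Kif3a and both CRISPR groups, without a call. Leaving out 1 library moved Gli1 between -1.06 and -0.61 (Ofd1 CRISPR), -1.17 and -0.54 (Kif3a CRISPR) and -1.002 and -0.69 (both), and Gli2 between -0.43 and -0.31, -0.58 and -0.37, and -0.47 and -0.36. For Ofd1 against Kif3a CRISPR the near-zero values changed sign. With 1 library left out Gli1 ran from -0.30 to 0.33 and Hhip from -0.23 to 0.27; they were 0.21 and 0.27 without Ofd1 1 and 0.33 and 0.19 without Kif3a 2. Mycbp2 in Ofd1 CRISPR ran from -0.023 (without GFP 1) to 0.24. The sign changes did not pass the test.

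By edgeR 1915 genes were called in Ofd1 CRISPR, and 664 to 2831 with 1 library left out, fewest without GFP 1 (664) or 2 (816). In Kif3a CRISPR 2584 were called, and 686 to 3119, with 1100 and 1362 without the same controls and 686 without Kif3a 1. In both 2943 were called, and 1118 to 3668, with 1118, 1348 and 1737 without those 3 libraries. For Ofd1 against Kif3a CRISPR 23 were called, and 0 to 50: 0 without Kif3a 1 (555 at an unadjusted p under 0.05), 12 without Kif3a 2 and 50 without Ofd1 1. That comparison gave 80 with no filter, 107 with DESeq2 and 191 with the replicate block. The replicate block called 3496 genes in Ofd1 CRISPR and kept the Gli1 and Gli2 calls against GFP control in both groups and in the pooled comparison. Labels give shared numbers only, and these do not establish pairs. Deviations of same-numbered libraries from their group means correlated at -0.00150 to 0.299. In a group of 2 libraries the deviations mirror each other, and no differently numbered libraries are set beside them. These correlations therefore cannot decide whether libraries were paired. The causes were not tested. With the longest transcript as length, Gli1 in GFP control was 111 CPM per kilobase in place of 90.5. The planned ratios with Gli3 were not run.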
